A study of Mus musculus with 21 samples.

Results

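Mouse embryonic stem cells (ESCs) lacking Cyp26a1 were compared with wild type ESCs after 24 h of 2 µM retinoic acid (RA), in 3 poly(A) RNA-seq libraries of each genotype, which were 6 of the 21 libraries in the series. The comparison asks which transcripts depended on Cyp26a1 during RA-induced differentiation. Before treatment the cells were kept in serum medium with LIF and the inhibitors CHIR99021 (3 µM, against GSK3) and PD0325901 (1 µM, against MEK), together called 2i, and all 6 cultures lost LIF and 2i when RA was added. Both genotypes therefore carried the same treatment, and a knockout culture without RA was not analysed here. The labels do not give the clone, the parental line, the part of Cyp26a1 that was deleted, or whether libraries of a genotype came from separate cultures, so p-values measure the spread between these libraries, which may be technical. The libraries are called WT1 to WT3 and KO1 to KO3. The other 15 libraries form a time course of wild type ESCs (0 h, and 12 h and 24 h either without LIF/2i, called noRA, or with 2 µM RA), which was used for changes only, because its tables rest on another annotation.

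RA is made from retinol by retinol and retinaldehyde dehydrogenases, is carried in the cell by small binding proteins, and acts by binding RAR and RXR receptors that sit on paired half-sites in DNA. CYP26 enzymes oxidise RA and so remove it, and Cyp26a1 is itself a direct target of the receptors, which closes a negative feedback loop. In ESCs, RA and loss of LIF/2i start the exit from naive pluripotency, activate Hox genes, and can lead to endoderm of the primitive (extraembryonic) type, a tissue marked by Gata6, Gata4, Sox17, Sox7, Dab2 and a laminin and collagen IV basement membrane.

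Levels are given as TPM, the share of all transcripts in a library, scaled for transcript length. Differences are the knockout mean minus the wild type mean of log2(TPM + 1), called log2 differences here, and understate the change of genes at low TPM. A gene was tested if it reached 1 TPM in 3 or more of the 6 libraries, and was called at an adjusted p below 0.05. Of 25239 genes in the tables, 12848 were tested. The knockout libraries had 429 genes called higher, which is 3.34% of those tested, and 855 called lower, which is 6.65%, so 9.99% were called in either direction. The libraries of the 2 genotypes did not overlap for any of these 429 and 855 genes. Lack of overlap, where given below, therefore does not set a called gene apart from other called genes. A difference of 2-fold or more was called for 57 genes higher (0.444%) and 107 lower (0.833%). The median log2 difference over all genes tested was -0.05. The split of calls depended on scaling, with 33.4% of calls higher and 66.6% lower as deposited, and 522 higher and 522 lower after median-of-ratios scaling of the TPM values.

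Libraries were close in depth, at 2.72 to 3.24 gigabases of aligned sequence as derived from the deposited coverage and FPKM, with 12408 to 12884 genes at 1 TPM or more. The ESC label was checked against Pou5f1, Sox2, Nanog and Zfp42, whose summed level was 2082 to 2102 TPM in wild type and 2749 to 3038 TPM in knockout libraries. KO3 and, less so, WT3 stood apart from the other libraries of their genotype, and their deviations followed the GC content of transcripts (Spearman across 12592 genes, -0.623 for KO3, -0.391 for WT3, and 0.151 to 0.534 for the other 4). Without KO3 the counts were 982 higher and 2178 lower, and they held 413 of the 429 genes called higher and 855 of the 855 called lower with all 6 libraries. Leaving out 1 of the other 5 libraries gave 114 to 207 genes higher and 179 to 470 lower, and 97 genes were called higher and 163 lower in each of the 6 fits that left out 1 library. With a correction for GC content and length the counts were 507 and 1052.

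**Figure D1:**
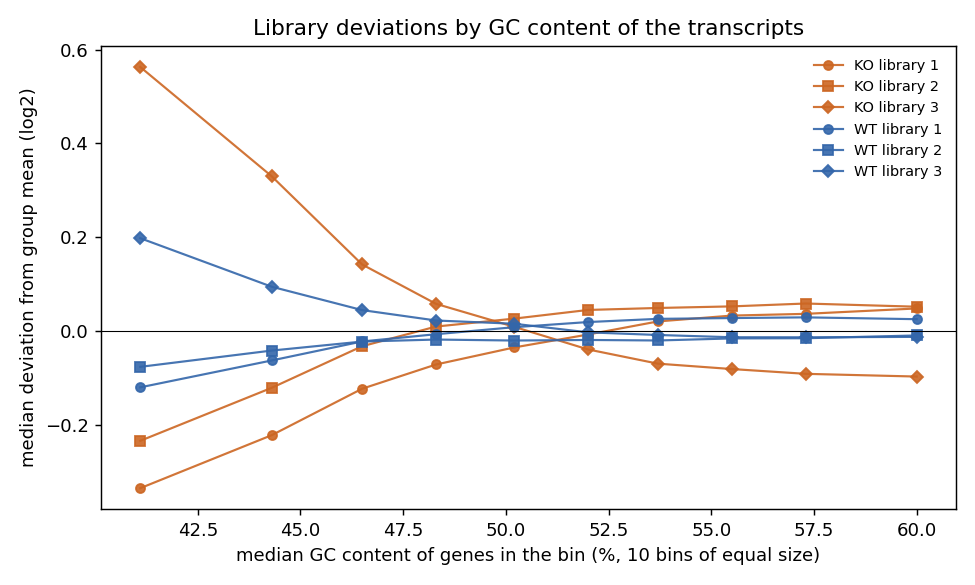
Median deviation of each library from its genotype mean (log2 scale, y axis) in 10 equal bins of genes ordered by transcript GC content (x axis, %), with knockout libraries in orange and wild type in blue. KO3 lay 0.563 above its genotype mean in the bin of lowest GC (median 41.1%), and WT3 lay 0.198 above.

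Cyp26a1 was nearly absent from the knockout libraries. Its level was 585, 606 and 592 TPM in WT1 to WT3 and 4.62, 4.03 and 4.93 TPM in KO1 to KO3. The groups did not overlap, the knockout mean was 0.761% of the wild type mean, and the log2 difference was -6.76 (SE 0.075, adjusted p = 2.2e-07). Cyp26a1 lies on the plus strand at chr19:37697808-37701536 (mm10) in the deposited tables. As background, its proximal promoter is known to hold a retinoic acid response element, and the promoter window shown first below (RefSeq, GRCm38.p6, chr19:37697558-37697857, plus strand, 250 bases before to 50 after the start site) has in capitals the single direct repeat found in it, with 5 bases between half-sites (DR5), at -32 to -16 on the strand opposite to the gene. The half-site AGGTCA was searched on both strands together with its variants AGTTCA (one base changed), GGGTCA (another base changed) and, with both changes, GGTTCA. A DR5 of these letters was in 0.0974% of 32841 promoter windows of this length, and any repeat with 5, 2 or 1 bases between half-sites was in 0.588%. Nanog, the most precisely measured of the pluripotency genes called higher, is shown second (chr6:122707239-122707538, plus strand), with the letters TTTGCATTACAA of an OCT-SOX composite site in capitals at -75 to -64. The pattern searched, TTTGCATNACAA, was in 0.0365% of the windows.
Cyp26a1: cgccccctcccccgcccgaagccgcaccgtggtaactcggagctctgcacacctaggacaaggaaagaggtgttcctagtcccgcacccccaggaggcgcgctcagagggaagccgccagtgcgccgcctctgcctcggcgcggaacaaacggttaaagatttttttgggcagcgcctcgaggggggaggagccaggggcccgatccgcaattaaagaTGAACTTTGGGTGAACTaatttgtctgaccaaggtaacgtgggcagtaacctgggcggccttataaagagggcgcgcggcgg
Nanog: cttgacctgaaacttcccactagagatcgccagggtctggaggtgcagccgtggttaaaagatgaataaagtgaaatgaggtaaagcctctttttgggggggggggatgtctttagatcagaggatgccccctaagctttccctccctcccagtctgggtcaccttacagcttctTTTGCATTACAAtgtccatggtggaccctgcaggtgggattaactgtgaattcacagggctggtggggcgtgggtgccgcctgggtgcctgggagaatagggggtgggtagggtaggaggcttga
Among the 155 genes chosen by rule for naming, 114 had promoter windows in the table, and 2 of them (Cyp26a1 and Ide) held one of the direct repeats.

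**Figure D2:**
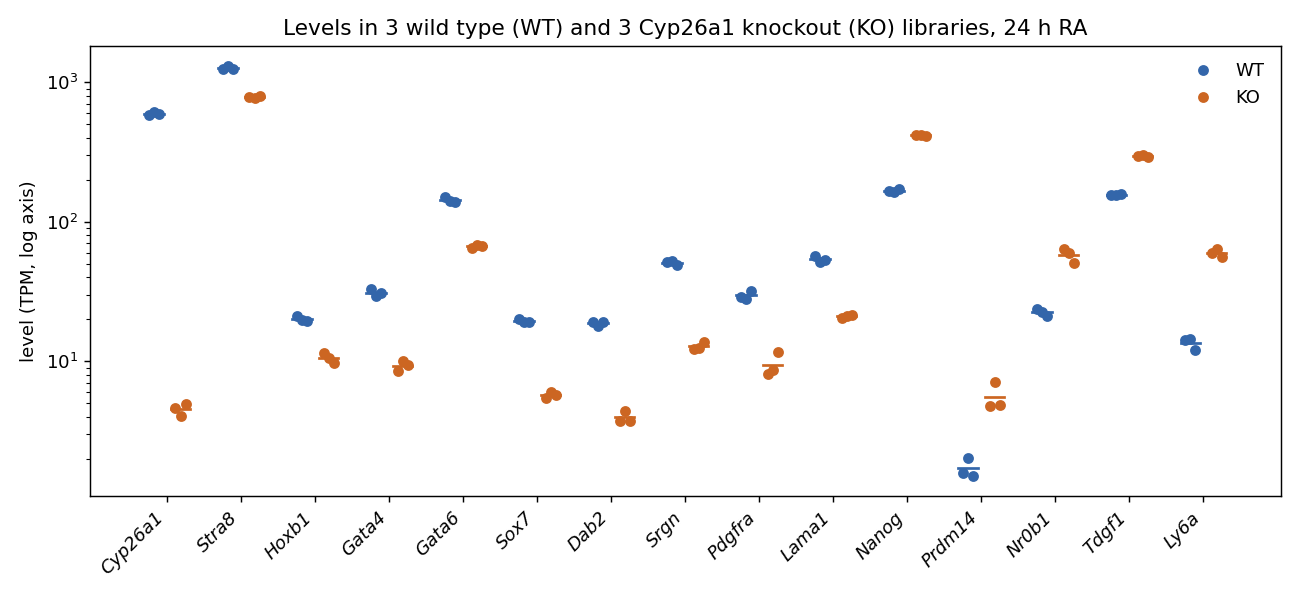
Level of 15 genes in each library (TPM, log axis), with wild type libraries in blue, knockout libraries in orange and short lines for group means. The groups did not overlap for any gene shown, as for all genes called. Nanog was at 164 to 170.5 TPM in wild type and 412 to 421 TPM in knockout libraries.

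Several other genes of RA supply and removal were lower in the knockout. Of 14 tested genes for retinoid uptake, binding and metabolism besides Cyp26a1, 7 were called lower and 0 higher, with a median log2 difference of -0.36 against -0.05 over all genes tested. Cyp26b1, the second CYP26 enzyme, stood at 37.8, 34.97 and 35.04 TPM in wild type and 16.2, 17.2 and 16.03 TPM in knockout libraries, a log2 difference of -1.08 (SE 0.072, adjusted p = 0.00089). Aldh1a2, which makes RA from retinaldehyde, stood at 7.45, 8.72 and 6.86 TPM and 3.40, 3.49 and 3.17 TPM, a log2 difference of -0.99 (SE 0.12, adjusted p = 0.0055). Every knockout library was below every wild type library for both genes. Fabp5, a fatty acid binding protein that can also carry RA, differed by -1.14 (SE 0.12, adjusted p = 0.0037). Further called members were Stra6, the retinol uptake receptor (-0.56), and Dhrs3 and Rdh10, which interconvert retinol and retinaldehyde (-0.48 and -0.41), all on the log2 difference scale. The RA binding proteins Crabp1 and Crabp2 did not pass the test (-0.07 and -0.12). Counts of these lower members were 3, 3 and 3 without WT1, WT2 and WT3, 5, 3 and 7 without KO1, KO2 and KO3, and 4 under median-of-ratios scaling. Stra6 lost the call without WT1, WT2, WT3 or KO2 (adjusted p up to 0.079). Dhrs3 and Rdh10 lost the call without WT1, WT2, WT3, KO1 or KO2 (adjusted p up to 0.11 and 0.18). Rdh10 had an adjusted p of 0.096 with the replicate block. Dhrs3 and Rdh10 had adjusted p-values of 0.08 and 0.091 under median-of-ratios scaling.

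The receptors themselves had few calls. Of 12 tested RA receptors and coregulators, 1 was called higher and 0 lower, and 0 were lower at an unadjusted p below 0.05. The one called was Rarg, the RAR gamma gene, with a log2 difference of 0.34 (SE 0.074, adjusted p = 0.037, up to 0.15 without WT1, WT2, WT3, KO1 or KO2). Rara, Rarb and Rxra had log2 differences of 0.12, -0.14 and -0.02 and did not pass the test.

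Direct and early RA targets were mostly on the lower side. Of 25 tested besides Cyp26a1, 11 were called lower and 1 higher, and the median log2 difference was -0.39. Stra8, the RA-induced gene needed for entry into meiosis, was the most abundant of them, at 1236, 1297 and 1240 TPM in wild type and 783, 766 and 790.5 TPM in knockout libraries. Its level in the knockout was 62% of wild type, with a log2 difference of -0.69 (SE 0.04, adjusted p = 0.00061), and the groups did not overlap. Foxa1, a transcription factor that also belongs to the endoderm genes below, had a log2 difference of -1.25. Cdx1, a caudal homeobox gene, was the member called higher, with 106, 104 and 109 TPM in wild type, 164, 156 and 136 TPM in knockout and a log2 difference of 0.51 (SE 0.077, adjusted p = 0.012, up to 0.074 without WT1, WT2, WT3 or KO2). Rarb (-0.14) and Meis2 (-0.12) did not pass. Counts of lower targets, again besides Cyp26a1, were 5, 5 and 6 without WT1, WT2 and WT3, 9, 7 and 16 without KO1, KO2 and KO3, and 8 under median-of-ratios scaling.

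Hox genes, which set position along the body axis, had most of their calls in the Hoxb cluster. In the Hoxb cluster 7 of 10 tested genes were called lower and 0 higher, with a median log2 difference of -0.51. Hoxb1 stood at 21.2, 19.7 and 19.4 TPM in wild type and 11.5, 10.5 and 9.65 TPM in knockout libraries, a log2 difference of -0.87 (SE 0.093, adjusted p = 0.0041). Hoxb5 and Hoxb9 differed by -0.65 (SE 0.071, adjusted p = 0.0044) and -0.66 (SE 0.073, adjusted p = 0.0046), and Hoxb2, Hoxb3, Hoxb4 and Hoxb6 by -0.46, -0.53, -0.50 and -0.55. Hoxb7, Hoxb8 and Hoxb13 did not pass. The number of Hoxb genes called lower was 4, 4 and 3 without WT1, WT2 and WT3, 6, 4 and 8 without KO1, KO2 and KO3, and 4 under median-of-ratios scaling. In the Hoxa cluster 1 of 10 tested genes was called, Hoxa5, at 166, 166 and 168 TPM in wild type and 148, 138 and 143 TPM in knockout libraries, with a log2 difference of -0.22 (SE 0.047, adjusted p = 0.032, up to 0.15 without WT1, WT2, WT3, KO1 or KO2, 0.074 with the replicate block, 0.26 under median-of-ratios scaling). The median over the Hoxa genes was -0.14. In the Hoxc and Hoxd clusters 1 of 8 was called, Hoxc4, with a log2 difference of -0.69 (SE 0.1, adjusted p = 0.011, up to 0.068 without WT1, WT2, WT3 or KO2). The shares called in the Hoxa (10%) and the Hoxc and Hoxd clusters (12.5%) were near the 9.99% over all genes tested. The difference between the clusters was not tested. Hoxb2 lost the call without WT3 (adjusted p 0.055). Hoxb3 lost the call without WT1, WT2, WT3, KO1 or KO2 (adjusted p up to 0.16). Hoxb4 and Hoxb6 lost the call without WT1, WT2, WT3 or KO2 (adjusted p up to 0.081 and 0.15). Hoxb3, Hoxb4 and Hoxb6 had adjusted p-values of 0.058, 0.052 and 0.096 under median-of-ratios scaling. Hoxa5 had an adjusted p of 0.0615 with the correction for GC content and length.

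Cofactors and other posterior homeobox genes showed 4 members lower and 1 higher of 12 tested. Meis3 and Pbx3, partners of Hox proteins on DNA, had log2 differences of -1.24 (SE 0.18, adjusted p = 0.01, up to 0.059 without WT1, WT2 or WT3) and -0.69 (SE 0.092, adjusted p = 0.0078, up to 0.057 without WT1 or WT3). Meis1 and Pbx2 were lower by smaller amounts (-0.40 and -0.29), and Cdx1 was the member called higher. The number lower in this list was 0, 1 and 0 without WT1, WT2 and WT3, 3, 3 and 6 without KO1, KO2 and KO3, and 3 under median-of-ratios scaling. Meis1 lost the call without WT1, WT2, WT3 or KO2 (adjusted p up to 0.09), and had an adjusted p of 0.14 with the correction for GC content and length. Pbx2 lost the call without WT1, WT2, WT3 or KO1 (adjusted p up to 0.14). Pbx2 had an adjusted p of 0.055 with the replicate block. Pbx2 had an adjusted p of 0.14 under median-of-ratios scaling.

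**Figure D3:**
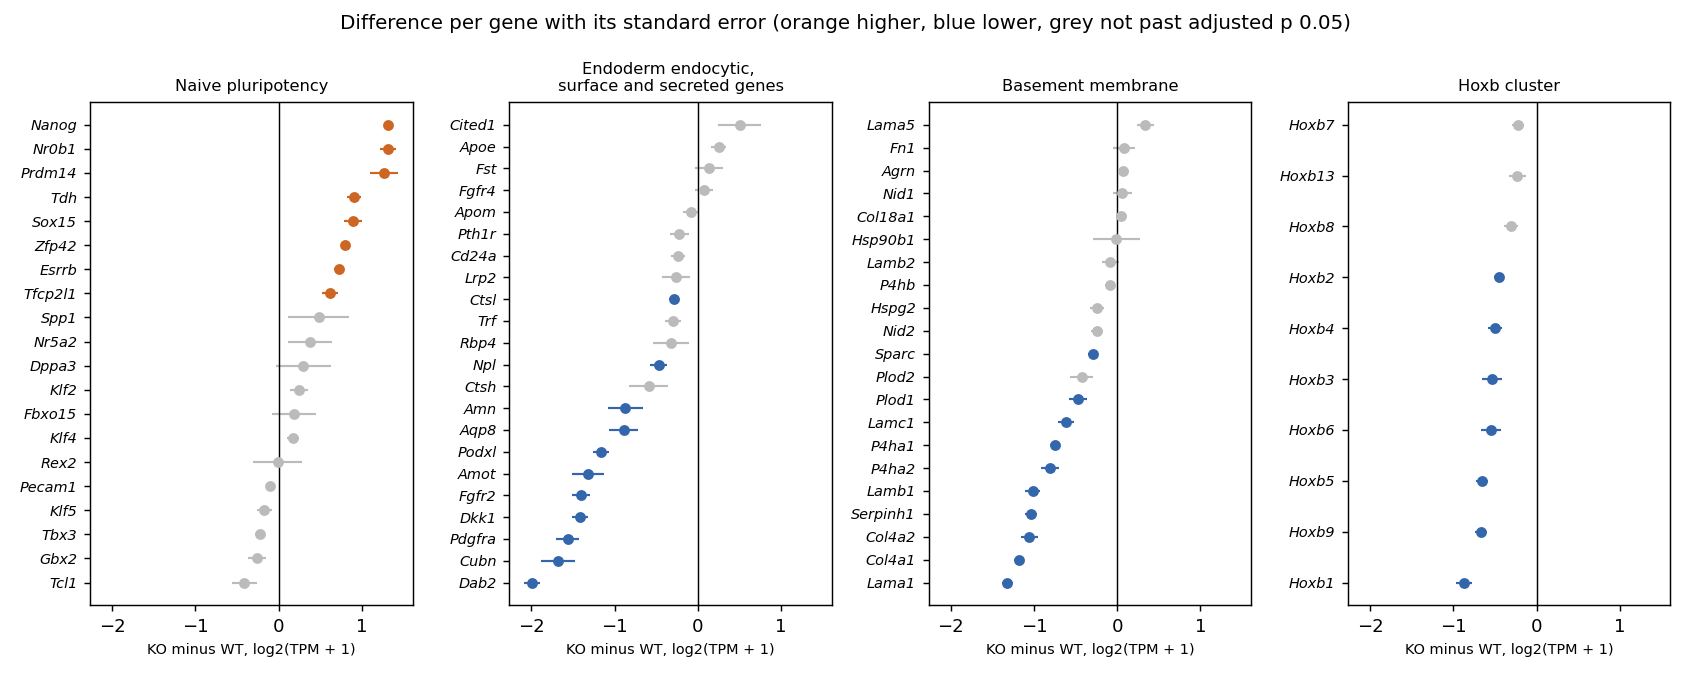
Log2 difference with its standard error (x axis, knockout minus wild type) for every tested gene of 4 lists, with called genes in orange (higher) or blue (lower) and others in grey. Naive pluripotency has 8 of 20 genes called higher, endocytic, surface and secreted endoderm genes 11 of 22 lower, basement membrane 10 of 21 lower and the Hoxb cluster 7 of 10 lower.

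Some transcription factors of endoderm were among the genes that differed most, and lower in the knockout. Of 16 tested, 8 were called lower and 0 higher, and the median log2 difference was -0.66. Gata6, the earliest of the endoderm GATA factors, stood at 151, 141 and 139 TPM in wild type and 65.04, 68.3 and 67.3 TPM in knockout libraries, with a log2 difference of -1.09 (SE 0.055, adjusted p = 0.00036). Gata4 stood at 33.1, 29.2 and 30.6 TPM and 8.46, 10.1 and 9.34 TPM, with a log2 difference of -1.64 (SE 0.095, adjusted p = 0.0006). For both GATA genes the highest knockout library was below the lowest wild type library.

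Sox7 and Sox17, SOX factors of the same tissue, had log2 differences of -1.61 (SE 0.085, adjusted p = 0.00039) and -0.80 (SE 0.092, adjusted p = 0.0052). Sox7 was at 20.2, 19.1 and 18.98 TPM in wild type and 5.42, 5.99 and 5.75 TPM in knockout libraries. Its knockout mean was 29.4% of the wild type mean, with no overlap between groups. The forkhead genes Foxq1, Foxa1 and Foxa2 differed by -1.58 (SE 0.092, adjusted p = 0.0006), -1.25 (SE 0.11, adjusted p = 0.002) and -1.25 (SE 0.14, adjusted p = 0.0045). Hnf4a (-0.35), Hhex (-0.03), Eomes (0.29) and Cebpa (-0.39) did not pass the test. The same 8 genes were called in each of the 6 fits that left out 1 library, and the count lower was 8, 8 and 8 without WT1, WT2 and WT3, 8, 8 and 9 without KO1, KO2 and KO3, and 8 under median-of-ratios scaling. In bulk RNA, fewer endoderm cells and less of these transcripts per cell cannot be told apart.

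Surface, endocytic and secreted genes of endoderm followed the same direction. Of 22 tested, 11 were called lower and 0 higher, with a median log2 difference of -0.40. Dab2, an adaptor for clathrin-mediated endocytosis and a marker of primitive endoderm, stood at 19.1, 17.9 and 19.2 TPM in wild type and 3.74, 4.40 and 3.75 TPM in knockout libraries. Its log2 difference was -1.99 (SE 0.097, adjusted p = 0.00036), second in size to Cyp26a1 among the called lower genes with standard symbols. Cubn, the endocytic receptor cubilin that works with Dab2 and Amn, stood at 6.27, 5.91 and 7.34 TPM and 0.935, 1.09 and 2.13 TPM, with a log2 difference of -1.68 (SE 0.2, adjusted p = 0.0058).

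Pdgfra, the PDGF receptor of primitive endoderm, stood at 28.8, 28.1 and 31.9 TPM in wild type and 8.07, 8.66 and 11.6 TPM in knockout libraries, a log2 difference of -1.56 (SE 0.14, adjusted p = 0.0023). Dkk1, a secreted WNT inhibitor, stood at 18.6, 18.9 and 17.03 TPM and 6.09, 5.70 and 6.79 TPM, a log2 difference of -1.42 (SE 0.098, adjusted p = 0.001). KO3 was the highest knockout library for Cubn, Pdgfra and Dkk1 and still lay below each wild type library. Fgfr2 (-1.41), Amot (-1.32), Podxl (-1.17), Aqp8 (-0.89), Amn (-0.87), Npl (-0.47) and Ctsl (-0.29) were the other members called lower. Lrp2, the megalin receptor, did not pass (-0.26), and the late endoderm products Afp, Ttr, Apoa1 and Apob were below the filter. The number lower was 6, 6 and 6 without WT1, WT2 and WT3, 8, 8 and 13 without KO1, KO2 and KO3, and 8 under median-of-ratios scaling. Amot and Amn lost the call without WT1, WT2, WT3 or KO2 (adjusted p up to 0.066 and 0.18). Aqp8 lost the call without WT1, WT2, WT3, KO1 or KO2 (adjusted p up to 0.11). Npl and Ctsl lost the call without WT1, WT2, WT3 or KO1 (adjusted p up to 0.15 and 0.12). Npl had an adjusted p of 0.0503 with the replicate block. Amn, Npl and Ctsl had adjusted p-values of 0.082, 0.08 and 0.12 under median-of-ratios scaling. Lrp2 was called lower without KO3 (adjusted p = 0.033).

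Genes for the basement membrane and for collagen processing were lower as well, 10 of 21 tested with 0 higher and a median log2 difference of -0.29. Lama1, the laminin alpha 1 chain, stood at 56.6, 51.8 and 53.6 TPM in wild type and 20.3, 21.2 and 21.5 TPM in knockout libraries, a log2 difference of -1.32 (SE 0.066, adjusted p = 0.00036). The collagen IV chains Col4a1 and Col4a2 differed by -1.18 (SE 0.06, adjusted p = 0.00036) and -1.06 (SE 0.11, adjusted p = 0.0033), with Col4a1 at 68.1, 63.4 and 64.4 TPM in wild type and 27.7, 28.8 and 28.2 TPM in knockout libraries. Serpinh1, the collagen chaperone HSP47, was at 163, 163 and 161 TPM and 83.8, 82 and 71.4 TPM, a log2 difference of -1.03 (SE 0.071, adjusted p = 0.00098). Knockout means of the 4 genes were 38.9% (Lama1), 43.3% (Col4a1), 46.2% (Col4a2) and 48.7% (Serpinh1) of wild type, and no groups overlapped.

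Further members were the laminin chains Lamb1 (-1.02) and Lamc1 (-0.62), the prolyl hydroxylases P4ha1 (-0.75) and P4ha2 (-0.81), the lysyl hydroxylase Plod1 (-0.47), and Sparc (-0.29). Lama5, Nid1, Hspg2 and Fn1 did not pass, with log2 differences of 0.34, 0.06, -0.24 and 0.09. Lower members numbered 7, 7 and 6 without WT1, WT2 and WT3, 8, 9 and 13 without KO1, KO2 and KO3, and 8 under median-of-ratios scaling. Of 18 tested integrins, collagens and other matrix receptors, 0 were called, while 2 were higher and 4 lower at an unadjusted p below 0.05, and 2 were called lower without KO3. Lamc1 lost the call without WT1, WT2 or WT3 (adjusted p up to 0.088). P4ha2 lost the call without WT3 (adjusted p 0.053). Plod1 lost the call without WT1, WT2, WT3, KO1 or KO2 (adjusted p up to 0.16). Sparc lost the call without WT1, WT2, WT3 or KO1 (adjusted p up to 0.12). Plod1 and Sparc had adjusted p-values of 0.092 and 0.13 under median-of-ratios scaling. Lama5 was called higher without KO1 (adjusted p = 0.047) and Hspg2 was called lower without KO3 (adjusted p = 0.044).

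Naive pluripotency genes moved the other way. Of 20 tested, 8 were called higher and 0 lower, with a median log2 difference of 0.34. Nanog, a homeobox factor of the naive state, stood at 165, 164 and 170.5 TPM in wild type and 417, 421 and 412 TPM in knockout libraries. The knockout mean was 249.8% of the wild type mean, and the log2 difference was 1.32 (SE 0.041, adjusted p = 0.00011). Nr0b1 (Dax1), a nuclear receptor without a DNA-binding domain of the usual kind, stood at 23.8, 22.7 and 21.1 TPM and 63.4, 59.3 and 50.4 TPM, a log2 difference of 1.31 (SE 0.1, adjusted p = 0.0014). Prdm14, which represses differentiation genes and DNA methyltransferases in ESCs, was at a low level of 1.59, 2.02 and 1.52 TPM and 4.80, 7.06 and 4.88 TPM, with a log2 difference of 1.27 (SE 0.17, adjusted p = 0.0077, 0.051 without WT1). For the 3 genes the knockout libraries all lay above the wild type ones.

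Tdh, the threonine dehydrogenase on which mouse ESC metabolism depends, Sox15, and Zfp42 (Rex1) had log2 differences of 0.90, 0.90 and 0.80. Esrrb and Tfcp2l1, transcription factors of the naive network, differed by 0.72 and 0.62. Klf2, Klf4, Klf5 and Tbx3 did not pass (0.24, 0.17, -0.17 and -0.22), so the difference covered a subset of the naive factors measured. Counts of higher members were 6, 7 and 7 without WT1, WT2 and WT3, 8, 7 and 9 without KO1, KO2 and KO3, and 8 under median-of-ratios scaling. Tfcp2l1 lost the call without WT1, WT2, WT3 or KO2 (adjusted p up to 0.07). Klf2 was called higher without KO3 (adjusted p = 0.015) and Tbx3 was called lower without KO3 (adjusted p = 0.037).

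General pluripotency genes showed 8 of 18 higher and 0 lower, with a median log2 difference of 0.28. Tdgf1 (Cripto), a coreceptor for Nodal, stood at 155, 155 and 159 TPM in wild type and 297, 300.2 and 289.6 TPM in knockout libraries, a log2 difference of 0.92 (SE 0.042, adjusted p = 0.00036). Fgf4, the FGF ligand made by ESCs, was at 21.4, 23.9 and 21.3 TPM and 37.9, 39.6 and 37.6 TPM, a log2 difference of 0.76 (SE 0.073, adjusted p = 0.0029). The core factors Sox2 and Pou5f1 (Oct4) differed by less, at 0.43 and 0.31, with Pou5f1 at 1639, 1620 and 1605 TPM in wild type and 2131, 2061 and 1840 TPM in knockout libraries. Zfp296 (0.62), Dppa2 (0.35), Dppa5a (0.34) and Mybl2 (0.31) completed the calls. Sall4, Lin28a and Utf1 did not pass. The number higher was 3, 4 and 2 without WT1, WT2 and WT3, 7, 4 and 10 without KO1, KO2 and KO3, and 9 under median-of-ratios scaling. Sox2 lost the call without WT3 (adjusted p 0.054). Pou5f1 lost the call without WT1, WT2, WT3, KO1 or KO2 (adjusted p up to 0.12). Zfp296 and Dppa2 lost the call without WT1, WT2, WT3 or KO2 (adjusted p up to 0.059 and 0.11). Dppa5a lost the call without WT1, WT3 or KO2 (adjusted p up to 0.076). Mybl2 lost the call without WT1, WT2 or WT3 (adjusted p up to 0.072).

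Formative and primed genes, which mark the stage after naive pluripotency, were split, with 4 of 18 higher and 7 lower and a median log2 difference of -0.09. Foxd3, a forkhead repressor, was low at 0.987, 1.93 and 1.89 TPM in wild type and 5.79, 7.48 and 4.27 TPM in knockout libraries, a log2 difference of 1.39 (SE 0.23, adjusted p = 0.017, up to 0.068 without WT1, WT2, WT3, KO1 or KO2). Car4, a carbonic anhydrase, was at 81.1, 78.98 and 77.6 TPM and 25.02, 31.5 and 25.1 TPM, a log2 difference of -1.51 (SE 0.099, adjusted p = 0.00081). Pou3f1 (Oct6), a POU factor of the primed state, differed by -0.83 (SE 0.12, adjusted p = 0.011, up to 0.066 without WT1 or WT3). Otx2 (0.43) did not pass, and Fgf5 was below the filter. The de novo DNA methyltransferases Dnmt3a and Dnmt3b were among the lower genes, at 140.5, 132 and 138 TPM in wild type and 88.8, 94.4 and 85.8 TPM in knockout libraries for Dnmt3a and log2 differences of -0.60 (SE 0.057, adjusted p = 0.0028) and -0.41 (SE 0.072, adjusted p = 0.019, up to 0.1 without WT1, WT2 or WT3). They were the 2 called of 13 tested DNA methylation genes (15.4%, against 9.99% over all genes tested), and Dnmt1 (-0.14), Dnmt3l (-0.25) and Tet1 (0.56) did not pass. Of the formative and primed genes, the number higher was 1, 1 and 1 without WT1, WT2 and WT3, 2, 1 and 5 without KO1, KO2 and KO3, and 4 under median-of-ratios scaling, and the number lower 4, 5 and 4 without WT1, WT2 and WT3, 6, 6 and 7 without KO1, KO2 and KO3, and 6 under median-of-ratios scaling. Dnmt3l was called lower without KO3 (adjusted p = 0.02).

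**Figure D4:**
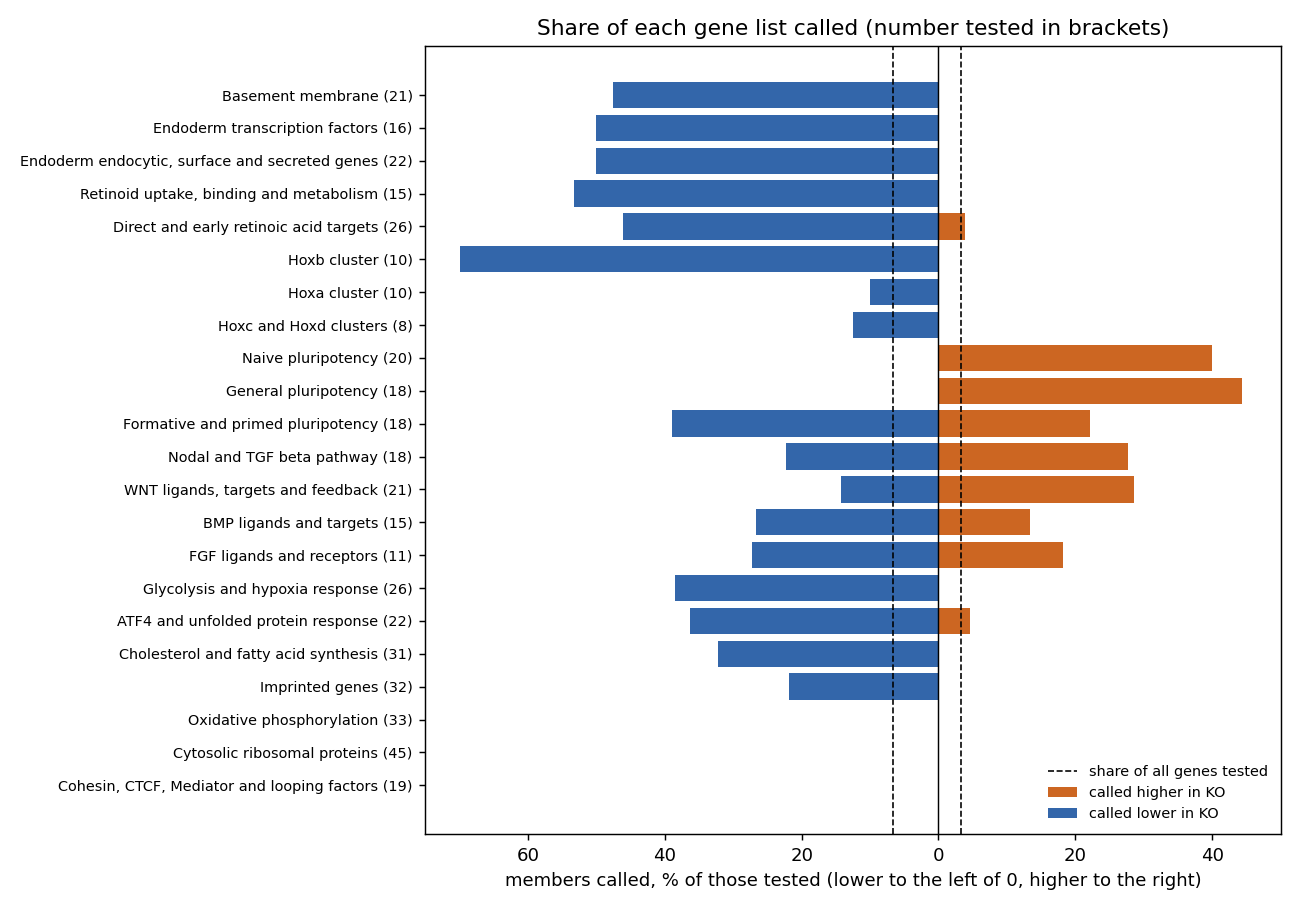
Share of tested members called lower (blue, to the left of 0) or higher (orange, to the right) in the knockout, in % of those tested, for 22 gene lists, with dashed lines at the shares over all genes tested (6.65% lower and 3.34% higher). The retinoid and RA target lists count Cyp26a1 itself. Retinoid, Hoxb, endoderm and basement membrane lists lie to the left, and naive and general pluripotency lists to the right.

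Signalling lists had some of their members called, where 9.99% of all genes tested were called. The FGF, WNT, Nodal and TGF beta, and BMP lists had 45.5%, 42.9%, 50% and 40% called. The LIF and STAT3, ERK feedback, Hedgehog and Hippo, and Notch lists had 18.8%, 14.3%, 13.3% and 7.14%, nearer the share over all genes. Among FGF ligands and receptors, 2 of 11 were higher and 3 lower. Fgfr2, an FGF receptor enriched in primitive endoderm, was at 34.5, 32.6 and 36.2 TPM in wild type and 11.1, 12.03 and 14.2 TPM in knockout libraries, a log2 difference of -1.41 (SE 0.11, adjusted p = 0.0014), while Fgfr1 did not pass (-0.06). Klb and Fgf3 were lower (-1.11 and -0.97), and Fgf4 and Fgf17 higher (0.76 and 0.87). Counts of higher FGF genes were 1, 1 and 1 without WT1, WT2 and WT3, 1, 1 and 2 without KO1, KO2 and KO3, and 2 under median-of-ratios scaling. Of 21 genes of ERK feedback and immediate response, 1 was higher (Etv4, 0.52) and 2 lower (Dusp4, an ERK phosphatase, -0.91, and Phlda1, -0.39). Fgf3 lost the call without WT1, WT3 or KO2 (adjusted p up to 0.1). Fgf17 lost the call without WT1, WT2, WT3, KO1 or KO2 (adjusted p up to 0.12). Phlda1 lost the call without WT1, WT2, WT3 or KO2 (adjusted p up to 0.082). Phlda1 had an adjusted p of 0.072 under median-of-ratios scaling.

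Of 21 WNT genes, 6 were higher and 3 lower. Notum, a secreted enzyme that inactivates WNT ligands, was at 6.49, 9.32 and 7.37 TPM in wild type and 23.7, 21.1 and 17.4 TPM in knockout libraries, a log2 difference of 1.32 (SE 0.16, adjusted p = 0.006). Wnt7b, Wnt6 and Wnt8a were higher at low levels (log2 differences 0.90 (SE 0.13, adjusted p = 0.011, up to 0.067 without WT1, WT2 or WT3), 0.68 (SE 0.16, adjusted p = 0.041, up to 0.15 without WT1, WT2 or WT3) and 0.55 (SE 0.12, adjusted p = 0.04, up to 0.16 without WT1, WT2, WT3, KO1 or KO2)). Wnt6 passed the filter through the knockout libraries only, so its call is not independent of the filter. It was tested in 3 of the 6 fits that left out 1 library, those lacking a wild type library, and was called in 0 of them. Dkk1 was lower, and the common WNT targets Axin2 (-0.10) and Lef1 (-0.10) did not pass. Counts of WNT genes called higher were 1, 1 and 1 without WT1, WT2 and WT3, 3, 2 and 6 without KO1, KO2 and KO3, and 7 under median-of-ratios scaling. Wnt8a had an adjusted p of 0.056 with the correction for GC content and length.

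Of 18 genes of the Nodal and TGF beta pathway, 5 were higher and 4 lower. Nodal itself (0.57), its coreceptor Tdgf1 and the activin subunit Inhbb (1.01 (SE 0.1, adjusted p = 0.0033)) were higher, together with Tgfb1 (0.82) and the inhibitory Smad7 (0.46). The Nodal inhibitors Lefty1 and Lefty2 (-0.61 and -0.66) and Furin, a protease that processes ligands (-0.68 (SE 0.11, adjusted p = 0.014, up to 0.074 without WT1 or WT3)), were lower. The higher members numbered 3, 2 and 2 without WT1, WT2 and WT3, 3, 2 and 5 without KO1, KO2 and KO3, and 5 under median-of-ratios scaling. The lower members numbered 0, 1 and 0 without WT1, WT2 and WT3, 3, 2 and 5 without KO1, KO2 and KO3, and 4 under median-of-ratios scaling. Nodal and Lefty2 lost the call without WT1, WT2, WT3 or KO2 (adjusted p up to 0.076 and 0.068). Tgfb1 lost the call without WT2, WT3, KO1 or KO2 (adjusted p up to 0.14). Smad7 lost the call without WT1, WT2, WT3, KO1 or KO2 (adjusted p up to 0.1). Lefty1 lost the call without WT1, WT2 or WT3 (adjusted p up to 0.078).

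Of 15 BMP genes, 2 were higher and 4 lower, with Bmp4 at a log2 difference of 0.53 and Bmp6, Id2 and Msx1 at -0.99 (SE 0.14, adjusted p = 0.0093, up to 0.061 without WT1 or WT3), -0.96 (SE 0.11, adjusted p = 0.0055) and -0.96 (SE 0.17, adjusted p = 0.018, up to 0.093 without WT1, WT2, WT3 or KO2). Lower BMP genes numbered 1, 2 and 1 without WT1, WT2 and WT3, 4, 2 and 7 without KO1, KO2 and KO3, and 3 under median-of-ratios scaling. In the LIF and STAT3 list 2 of 16 were higher (Tfcp2l1 and Ccnd3) and 1 lower, Il6st (gp130), the shared subunit of the LIF receptor, at -0.64 (SE 0.14, adjusted p = 0.041, up to 0.16 without WT1, WT2, WT3, KO1 or KO2). Lifr and Socs3 did not pass (-0.52 and -0.06). The Notch pathway had 1 of 14 higher (Rfng, 0.45 (SE 0.08, adjusted p = 0.02, up to 0.1 without WT1, WT2, WT3, KO1 or KO2)) and 0 lower, with 2 lower at an unadjusted p below 0.05. Hedgehog and Hippo targets had 0 of 15 higher and 2 lower (Smo, -0.46, and Amotl2, -0.37), of which 0 were called under median-of-ratios scaling. Bmp4 and Smo lost the call without WT1, WT2, WT3, KO1 or KO2 (adjusted p up to 0.094 and 0.15). Amotl2 lost the call without WT1, WT2, WT3 or KO1 (adjusted p up to 0.11). Smo and Amotl2 had adjusted p-values of 0.055 and 0.078 under median-of-ratios scaling. Smo had an adjusted p of 0.065 with the correction for GC content and length. Lifr was called lower without KO3 (adjusted p = 0.015).

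The genes that differed most in either direction add further functions. Among the 12 lowest by log2 difference were Cyp26a1, Dab2, Srgn, Gpr50, Ubash3b, Cubn, S100g, Gata4, Arg1, Sox7 and Timd2. Srgn, the core protein of a secretory granule proteoglycan, stood at 51.3, 52 and 49.1 TPM in wild type and 12.2, 12.5 and 13.8 TPM in knockout libraries, a log2 difference of -1.91 (SE 0.075, adjusted p = 0.00023). Gpr50, an orphan receptor related to melatonin receptors, stood at 12.2, 11.96 and 11.1 TPM and 2.90, 2.83 and 2.25 TPM, a log2 difference of -1.81 (SE 0.11, adjusted p = 0.00078). Arginase 1 (Arg1) was at 39.2, 33.4 and 30.3 TPM and 8.78, 10.4 and 12.5 TPM, a log2 difference of -1.61 (SE 0.15, adjusted p = 0.0026). None of these overlapped between groups. Ubash3b, a tyrosine phosphatase, the calcium binding S100g and Timd2, a receptor of the TIM family, had log2 differences of -1.70 (SE 0.13, adjusted p = 0.0014), -1.64 (SE 0.18, adjusted p = 0.0046) and -1.60 (SE 0.16, adjusted p = 0.0033). S100g passed the filter through the wild type libraries only. It was tested in 3 of the 6 fits that left out 1 library, those lacking a knockout library, and was called in these 3.

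On the higher side the first 12 were Ly6c1, Akap2, Tmprss2, Ly6a, Cpsf4l, Ociad2, Otor, Msc, Krtdap, Sfn, Laptm5 and Mir142b. Ly6a (Sca-1), a GPI-anchored surface protein, stood at 14.2, 14.6 and 12.04 TPM in wild type and 60.1, 63.7 and 55.6 TPM in knockout libraries, a log2 difference of 2.06 (SE 0.096, adjusted p = 0.00036). Ly6c1, a relative in the same family, stood at 0.56, 1.09 and 1.13 TPM and 14.4, 14.4 and 14.6 TPM, a log2 difference of 3.02 (SE 0.15, adjusted p = 0.00036). Reads of Ly6 genes can be split between near-identical copies, so the amount for each single gene is uncertain. Tmprss2, a transmembrane serine protease, was at 3.89, 3.33 and 3.58 TPM and 19.4, 17.97 and 17.6 TPM, a log2 difference of 2.07 (SE 0.096, adjusted p = 0.00036).

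Sfn (14-3-3 sigma) and the lysosomal membrane protein Laptm5 had log2 differences of 1.47 (SE 0.078, adjusted p = 0.0004) and 1.44 (SE 0.074, adjusted p = 0.00037), with Laptm5 at 46.4, 40.98 and 41.7 TPM in wild type and 116, 126 and 112 TPM in knockout libraries. Msc (musculin), a bHLH repressor, and Ociad2 differed by 1.57 (SE 0.15, adjusted p = 0.003) and 1.66 (SE 0.1, adjusted p = 0.00077). Cpsf4l, Otor and Krtdap were low in wild type, at 2.64, 2.13 and 2.42 TPM, 0, 0.401 and 0 TPM and 0.945, 0.848 and 0 TPM, and stood at 10.1, 11.3 and 9.06 TPM, 2.14, 1.68 and 3.995 TPM and 2.75, 3.81 and 3.39 TPM in the knockout. Otor and Krtdap passed the filter through the knockout libraries only. They were tested in 3 of the 6 fits that left out 1 library, those lacking a wild type library, and each was called in 1 of them. Akap2, an anchoring protein for protein kinase A, and Mir142b were listed at 0 in the 3 wild type libraries and at 6.05, 2.69 and 5.67 TPM and 1.21, 1.02 and 3.42 TPM in KO1 to KO3, so no fold is given. Akap2 and Mir142b also passed the filter through the knockout libraries only. Both were tested in the same 3 fits, in which Akap2 was called 3 times and Mir142b 0 times (adjusted p 0.115 to 0.125). Mir142b had an adjusted p of 0.051 with the correction for GC content and length. Calls of genes that passed through the knockout libraries only are not independent of the filter. Akap2 shares its locus with Palm2, and how reads of overlapping genes or strands were assigned is not given in the sources used here.

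Metabolic and stress genes that were called were mostly lower. Of 26 glycolysis and hypoxia genes, 10 were lower and 0 higher, with a median log2 difference of -0.23. Bnip3, a mitophagy receptor induced by hypoxia, was at 95.2, 95.3 and 98.05 TPM in wild type and 43.7, 41.2 and 48.3 TPM in knockout libraries, a log2 difference of -1.10 (SE 0.071, adjusted p = 0.00081). Tpi1, a glycolytic isomerase, and Vegfa, the vascular growth factor, differed by -0.55 (SE 0.068, adjusted p = 0.006) and -0.55 (SE 0.069, adjusted p = 0.0065, 0.051 without WT1). Gapdh (-0.18) and Pkm (-0.18) did not pass. The count was 2, 4 and 4 without WT1, WT2 and WT3, 8, 5 and 13 without KO1, KO2 and KO3, and 3 under median-of-ratios scaling. Pkm was called lower without KO3 (adjusted p = 0.041).

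Of 22 genes of ATF4 and the unfolded protein response, 8 were lower and 1 higher. Herpud1, a factor of ER-associated degradation, Stc2 and Chac1 differed by -0.91 (SE 0.11, adjusted p = 0.006), -0.79 (SE 0.13, adjusted p = 0.014, up to 0.084 without WT1, WT2 or WT3) and -0.72 (SE 0.089, adjusted p = 0.0062), while Atf4 itself (-0.20) and Hspa5 (-0.04) did not pass. Lower members of the list numbered 2, 3 and 2 without WT1, WT2 and WT3, 6, 6 and 12 without KO1, KO2 and KO3, and 5 under median-of-ratios scaling. Of 31 genes of cholesterol and fatty acid synthesis, 10 were lower and 0 higher, with small differences such as Fads1 (-0.55 (SE 0.071, adjusted p = 0.0071, up to 0.052 without WT1 or WT3)) and Srebf1 (-0.45 (SE 0.084, adjusted p = 0.024, up to 0.11 without WT1, WT2, WT3, KO1 or KO2, 0.067 under median-of-ratios scaling)), while Fasn did not pass (-0.23). This count was 0, 1 and 0 without WT1, WT2 and WT3, 4, 4 and 15 without KO1, KO2 and KO3, and 3 under median-of-ratios scaling.

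Several gene groups had few or no calls. Of 33 oxidative phosphorylation genes, 45 cytosolic ribosomal protein genes and 19 genes of cohesin, CTCF, Mediator and looping, limma called 0 in each. At an unadjusted p below 0.05 the first had 2 higher and 3 lower, the second 2 higher and 1 lower, and the third 1 higher and 0 lower. Without KO3 the calls were 5 higher and 2 lower, 7 higher and 0 lower, and 1 higher and 4 lower. Ctcf (-0.05), Rad21 (-0.20), Nipbl (-0.05) and Med12 (-0.26) did not pass. Polycomb and trithorax genes had 1 of 23 higher (Pcgf2, 0.29) and 1 lower (Cbx2, -0.56 (SE 0.082, adjusted p = 0.011, up to 0.074 without WT1, WT2 or WT3)). Pcgf2 lost the call without WT1, WT2, WT3, KO1 or KO2 (adjusted p up to 0.15). Pcgf2 had an adjusted p of 0.06 with the replicate block and 0.079 with the correction for GC content and length. Ctcf was called lower without KO3 (adjusted p = 0.049) and Rad21 was called lower without KO3 (adjusted p = 0.015).

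Imprinted genes had 7 of 32 lower and 0 higher. Mest, expressed from the paternal allele, was at 478, 458 and 473 TPM in wild type and 190.0, 202 and 194 TPM in knockout libraries, a log2 difference of -1.26 (SE 0.046, adjusted p = 0.00019). Phlda2 and Dlk1, growth regulators, differed by -1.05 (SE 0.13, adjusted p = 0.006) and -0.92 (SE 0.13, adjusted p = 0.0098, up to 0.064 without WT1, WT2 or WT3), and H19, Igf2 and Meg3 did not pass (0.11, -0.25 and -0.23). The number lower was 2, 4 and 2 without WT1, WT2 and WT3, 5, 6 and 12 without KO1, KO2 and KO3, and 5 under median-of-ratios scaling. In the germline and meiosis list 3 of 20 were lower and 0 higher, Stra8, the meiotic cohesin Rec8 (-0.54 (SE 0.081, adjusted p = 0.012, up to 0.073 without WT1, WT2 or WT3)) and Mael (-0.36). Dazl, Sycp3 and Ddx4 did not pass (0.08, -0.04 and 0.33). The share called was 15% in the germline and meiosis list and 21.9% in the imprinted list, against 9.99% over all genes tested. Mael lost the call without WT1, WT2, WT3, KO1 or KO2 (adjusted p up to 0.14). Mael had an adjusted p of 0.056 with the replicate block. Mael had an adjusted p of 0.091 under median-of-ratios scaling. H19 was called higher without KO3 (adjusted p = 0.011) and Meg3 was called lower without KO3 (adjusted p = 0.014).

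The markers of endoderm and of other cell types gave the following summed levels, whose part in the results above was not tested. The summed level of 6 primitive endoderm markers (Gata4, Gata6, Sox17, Dab2, Lama1 and Col4a1) was 322.6 to 347 TPM in wild type and 136 to 143 TPM in knockout libraries. Fibroblast markers (7 genes) summed to 2.69 to 4.70 TPM in wild type and 2.96 to 3.71 TPM in knockout libraries, with Lum and Postn at 0 throughout. Blood and endothelial markers (4 genes) summed to 2.00 to 2.38 and 1.77 to 3.97 TPM, with Ptprc and Hbb-bt at 0 throughout. Sox1, Pax6 and Tubb3, neural markers, summed to 34.2 to 39.7 and 36.2 to 45.9 TPM, most of it Tubb3, while Sox1 alone was lower in the knockout (-0.65 (SE 0.15, adjusted p = 0.043, up to 0.17 without WT1, WT2, WT3, KO1 or KO2, 0.053 with the replicate block, 0.067 under median-of-ratios scaling)). In these short sets other than endoderm the ranges of the 2 genotypes overlapped. The longer lists did not all overlap. The 27 neural genes summed to 376 to 394 TPM in wild type and 237 to 273 TPM in knockout libraries, of which Stmn2 alone made up 302, 306 and 299.5 TPM and 169.5, 178 and 159 TPM. The 14 blood and endothelial genes summed to 84.3 to 87.6 and 94.9 to 102 TPM, most of it Cd68, with Ptprc, Hbb-bt and Hba-a1 at 0 throughout. The 14 fibroblast genes summed to 8.33 to 10.4 and 7.12 to 9.25 TPM.

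In the wild type time course, many of the genes lower in the knockout were higher with RA at 24 h. Genes higher in the knockout were lower with RA at 24 h more often (33.3%) than all genes tested in both fits (11.9%). Their share higher with RA at 24 h (30.1%) was nearer the share over all genes (24.3%). The time course libraries are separate from the 6 compared above, so the changes share no sample, and 12112 genes were tested in both fits. RA_24h against noRA_24h had 24.3% of them called higher and 11.9% lower. RA_24h against RA_12h, which shares the RA_24h libraries with the first comparison, had 18.3% higher and 17.8% lower. Of 809 genes lower in the knockout, 472 (58.3% of these, 16.0% of the RA list) were higher with RA at 24 h and 73 (9.02%) were lower. Of 402 genes higher in the knockout, 134 (33.3% of these, 9.31% of the RA list) were lower with RA at 24 h and 121 (30.1%) were higher. Without KO3 the share of lower genes that RA raised was 31.9%, against a background of 24.4%. The share of higher genes that RA raised was then 25.7%, against the same background. The share of higher genes that RA lowered was 23.97%, against 11.87%.

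Against RA_12h, 473 of the 809 lower genes (58.5%, 21.3% of the time course list) were higher at 24 h and 40 (4.94%) were lower. Of the 402 higher genes, 281 (69.9%, 13.1% of the time course list) were lower at 24 h than at 12 h and 22 (5.47%) were higher. Across the 12111 genes other than Cyp26a1, which are not independent of each other, Pearson's r between the differences was -0.239 against the 24 h RA effect and -0.381 against the 12 h to 24 h change.

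Single genes show both patterns. Dab2 and Gata4 were higher with RA at 24 h (log2 differences 2.01 and 3.69) and between 12 h and 24 h (1.80 and 3.08), and lower in the knockout. Stra8 and Hoxb1 were higher with RA by 5.71 and 3.33. Nanog was higher with RA at 24 h (0.58, adjusted p = 2.3e-05) but lower at 24 h than at 12 h (-1.26, adjusted p = 3.5e-08), and higher in the knockout. Ly6a fell by 3.51 between 12 h and 24 h and Foxd3 by 2.57, and both were higher in the knockout. Cdx1 was higher with RA (5.85) and higher in the knockout (0.51). Called higher with RA at 24 h were 121 of the 402 genes higher in the knockout (30.1%, against 24.3% over all genes tested in both fits). Cdx1 lost the call without WT1, WT2, WT3 or KO2 (adjusted p up to 0.074).

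**Figure D5:**
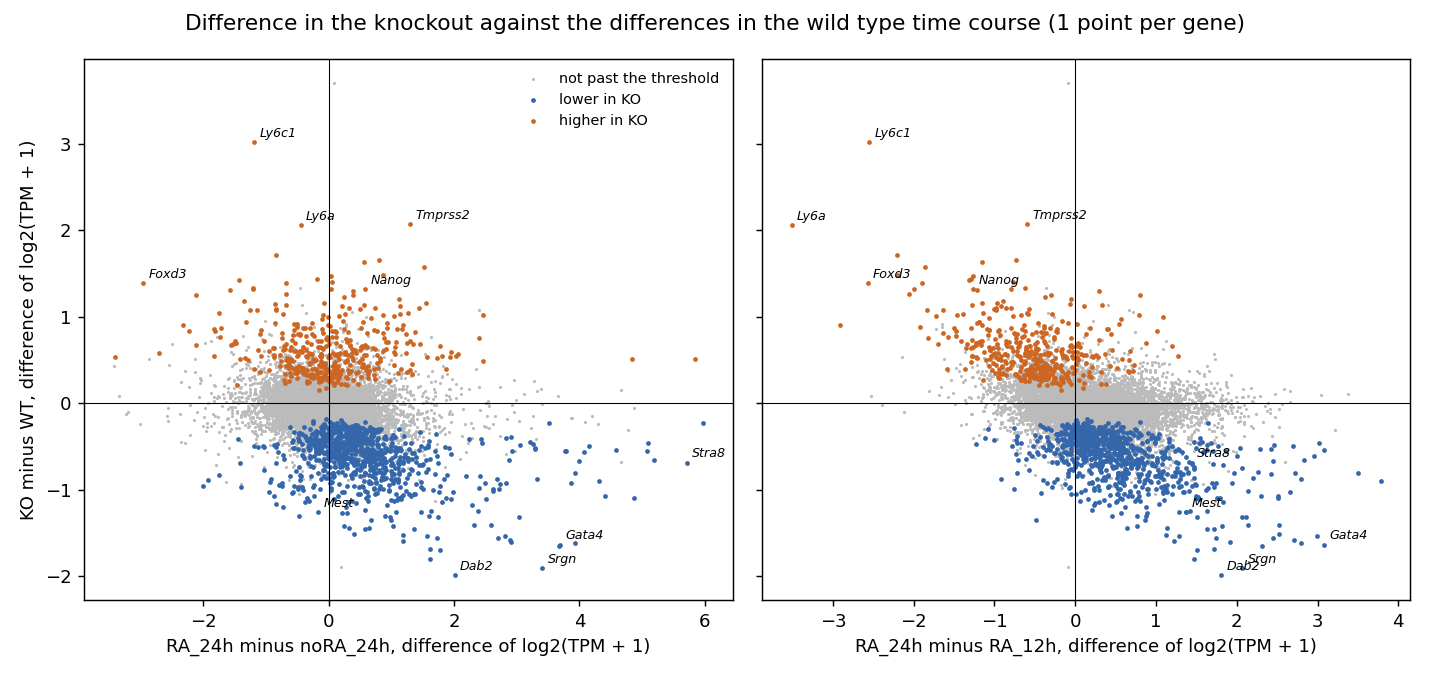
Log2 difference in the knockout (y axis) against the log2 difference of RA_24h minus noRA_24h (left) and RA_24h minus RA_12h (right) in the wild type time course, 1 point per gene with Cyp26a1 left out. Genes called higher (orange) or lower (blue) in the knockout spread towards the upper left and lower right in the right panel, where Pearson's r was -0.381.

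Genes near the deleted locus were looked at separately. Of the genes starting within 1 Mb of Cyp26a1, Slc35g1, a solute carrier 698 kb away, was called besides Cyp26a1, at 30.2, 31.7 and 34.2 TPM in wild type and 21.4, 24.4 and 24.4 TPM in knockout libraries, with a log2 difference of -0.44 (SE 0.086, adjusted p = 0.027, up to 0.12 without WT1, WT2, WT3, KO1 or KO2). Cyp26c1, the CYP26 gene that lies 12.1 kb upstream, was at 3.86, 5.26 and 4.42 TPM and 6.82, 5.53 and 5.02 TPM, with a log2 difference of 0.30 (SE 0.15, adjusted p = 0.28), and did not pass the test. Its groups overlapped, with KO3 at 5.02 TPM and WT2 at 5.26 TPM. Exoc6 and Hhex, the next tested genes upstream, had log2 differences of -0.26 and -0.03 and did not pass. Without KO3, 4 neighbours not called with all 6 libraries were called lower, namely Exoc6 (-0.60, adjusted p = 0.032), Ide (-0.51, adjusted p = 0.027), Tnks2 (-0.49, adjusted p = 0.02) and Plce1 (-1.02, adjusted p = 0.0033).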

How the data were processed

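Poly(A) RNA-seq libraries (paired-end, per the labels) were aligned with HISAT2 to mm10 and quantified with StringTie by the authors, per the submitters' processing notes, which give no versions. The deposited tables hold TPM, FPKM and coverage per gene for 1 library each and no counts, and the way the authors normalized beyond these columns is not given in the sources used here. TPM values of rows with the same gene identifier were summed. log2(TPM + 1) was computed here from the deposited TPM, and genes at 1 TPM or more in 3 or more of the 6 libraries were fitted with limma 3.58.1 (R 4.3.3, eBayes with a trend, two-sided), with Benjamini-Hochberg adjustment over all 12848 genes and calls below 0.05. The design had genotype only. Time course changes came from a separate limma fit of its 15 libraries. The depth behind single values is known only through coverage, so no counting intervals are given. The fit was tested on simulated data.

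Same-numbered libraries of the 2 genotypes deviated together from their group means (correlations 0.319, 0.189 and 0.536 across genes for numbers 1, 2 and 3, though KO1 also correlated with WT2 at 0.227, and KO2 with WT1 at 0.268, above its value with WT2), so a fit with the replicate number as a block was run as the paired alternative. Other alternatives were a smaller pseudocount (0.1), testing unfiltered genes or genes averaging 5 TPM or more, median-of-ratios scaling, quantile-normalized values, the deposited FPKM, eBayes without a trend, and fits lacking 1 library each, and, added after seeing the data, the coverage signal deposited by the authors and a correction for GC content and length (spline, 4 degrees of freedom, 98.0% of genes). Members and the 44 gene lists were chosen with earlier results of these data known. Genes were named by a rule: Cyp26a1, Nanog and Dab2, the 12 highest and 12 lowest called genes with standard symbols, the 4 largest called members of each list, genes within 1 Mb of Cyp26a1, and the largest calls opposite to the RA effect. Further list members are named to complete a list or as defining members, and were chosen after their values were seen. Values of some genes that the rule or the lists include are not reported here, and counts include them. Promoter sequences are RefSeq (GRCm38.p6).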

Additional observations from a re-analysis of the deposited data

How the results depend on the processing

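Of the 140 called genes that the naming rule chose, 0 changed sign under an alternative, while of the 15 it chose that were not called 6 did, such as Btaf1 (0.05, and -0.52 without KO3) and Kif11 (0.07 and -0.60). The groups of called genes do not overlap, so leaving out 1 library, another pseudocount or the replicate block could not change their sign. The count of 0 is therefore no measure of stability for those alternatives. Numbers of calls were not stable. Genes called higher (429) were 284 with FPKM, and 114 to 982 over the fits that left out 1 library. Genes called lower (855) were 522 under median-of-ratios scaling, 477 under quantile normalization, and 179 to 2178 over the fits that left out 1 library. Genes 2-fold higher (57) were 34 with a mean of at least 5 TPM and 29 with FPKM. Genes 2-fold lower (107) were 226 with a pseudocount of 0.1, 71 with a mean of at least 5 TPM and 57 with FPKM. The causes of these moves were not tested, apart from the filter, which tests fewer genes. In the paired analysis, the fit with the replicate block called 396 genes higher and 766 lower, and 61 and 110 by 2-fold or more. Of those 140 genes, it lost 9 (Esam, Hoxa5, Mael, Pcgf2, Perp, Sesn2, Sox1, Sox21 and Tfap2a) and changed no other call among them. Of those not called it added 1, Plce1 (adjusted p = 0.045), and leaving out KO3 added 4. With the replicate block and GC content and length correction together the counts were 608 and 1233.

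In the time course, genes lower in RA_24h against noRA_24h (1737) were 1305 to 3567 over the fits that left out 1 library, the highest without RA_24h replicate 2. Restricted to 2-fold calls, 19.2% of genes higher in the knockout were higher and 21.2% lower with RA at 24 h, 1.92% were higher and 46.2% lower at 24 h than at 12 h, and 0 of the lower genes were lower in either comparison. Over all genes tested in both fits, the 2-fold shares were 4.615% higher and 2.609% lower with RA at 24 h. Against RA_12h these shares were 4.747% higher and 1.486% lower. Without KO replicate 3, 31.9% of lower genes were higher with RA at 24 h, against 24.4% over all genes tested in both fits. Under median-of-ratios scaling, 3.07% of lower genes were lower at 24 h than at 12 h, against 18.03% over all genes tested in both fits. Of the 140 genes, 67 were called in each of the 6 fits that left out 1 library, and 15 lost the call under median-of-ratios scaling. Lost calls numbered 25 under quantile normalization, 21 without the filter and 8 with the correction for GC content and length. With FPKM, 19 of the 136 tested there were lost. With 3 libraries a genotype, leaving out 1 leaves 2 against 3. Depth bears on low genes such as Otor, Krtdap, Wnt6 and Mir142b, whose calls rest on levels near 1 TPM.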

Other observations

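Trophoblast and simple epithelium genes had 5 of 15 higher and 1 lower. Rhox9, a homeobox gene of the X-linked Rhox cluster, stood at 8.28, 7.92 and 9.14 TPM in wild type and 14.3, 16.9 and 15.2 TPM in knockout libraries, a log2 difference of 0.80 (SE 0.1, adjusted p = 0.0065). Krt7, a simple epithelial keratin, and Fgfbp1 had log2 differences of 0.87 (SE 0.17, adjusted p = 0.027, up to 0.1 without WT1, WT2, WT3, KO1 or KO2) and 0.85 (SE 0.14, adjusted p = 0.016, up to 0.076 without WT2, WT3 or KO2), while Krt18 was lower (-0.62 (SE 0.077, adjusted p = 0.0062)) and the trophoblast factors Cdx2, Gata3 and Tfap2c did not pass (0.32, 0.04 and -0.16). Higher members of this list numbered 2, 1 and 1 without WT1, WT2 and WT3, 2, 1 and 7 without KO1, KO2 and KO3, and 5 under median-of-ratios scaling. Among cadherins, epithelial and mesenchymal genes, 3 of 25 were higher and 1 lower. The share called was 16% here and 40% in the trophoblast and simple epithelium list, against 9.99% over all genes tested. Vimentin (Vim), the mesenchymal intermediate filament, was at 569, 541 and 537 TPM in wild type and 300.1, 285 and 257 TPM in knockout libraries, a log2 difference of -0.97 (SE 0.066, adjusted p = 0.00098), and Cdh1 (E-cadherin), Cdh3 and Cldn4 were higher, at 0.31 (SE 0.056, adjusted p = 0.02, up to 0.081 without WT1, WT2, WT3, KO1 or KO2), 0.84 (SE 0.2, adjusted p = 0.049, up to 0.16 without WT1, WT2, WT3, KO1 or KO2) and 0.80 (SE 0.095, adjusted p = 0.0057). Cdx2 was called higher without KO3 (adjusted p = 0.039).

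Of 24 G1 cyclins, CDK inhibitors and Myc family genes, 2 were higher and 4 lower. Ccnd2 (cyclin D2) was at 5.54, 5.75 and 5.97 TPM in wild type and 15.5, 16.6 and 14.8 TPM in knockout libraries, a log2 difference of 1.30 (SE 0.089, adjusted p = 0.00098), and the CDK inhibitors Cdkn1c and Cdkn1b were lower, at -0.61 (SE 0.086, adjusted p = 0.0098, up to 0.066 without WT1, WT2 or WT3) and -0.46 (SE 0.067, adjusted p = 0.011, up to 0.074 without WT1, WT2 or WT3). Of 19 S100, annexin and galectin genes, 4 were higher and 2 lower, with S100a6 at 1.32 (SE 0.1, adjusted p = 0.0014) and Lgals3 at 0.94 (SE 0.074, adjusted p = 0.0015). Over the fits that left out 1 library, higher S100, annexin and galectin genes numbered 2 to 8, lower cyclin, inhibitor and Myc genes 0 to 5, and higher ones 1 to 7, with the highest counts without KO3. Of 15 interferon response and antigen presentation genes, 3 were higher (H2-M5, Ifitm1 and Ifitm3 at 0.78, 0.64 and 0.60) and 2 lower (H2-K1 and H2-D1 at -0.86 (SE 0.093, adjusted p = 0.0043) and -0.64 (SE 0.15, adjusted p = 0.044, up to 0.17 without WT1, WT2, WT3, KO1 or KO2, 0.092 under median-of-ratios scaling)), and reads of MHC genes can be split between similar copies. The p53 and apoptosis list had 2 of 21 higher and 1 lower, axon guidance 1 of 18 higher (Ntn1, 0.88) and 1 lower (Ephb2, -0.77), streak and mesoderm 2 of 9 higher and 2 lower, and neural genes 1 of 13 higher and 2 lower (Stmn2 at -0.84 (SE 0.054, adjusted p = 0.00081)). The p53 and axon guidance lists had 14.3% and 11.1% called, near the 9.99% over all genes tested, and the neural list 23.1%. The cyclin, the S100 and the interferon lists had 25%, 31.6% and 33.3% called. Two-cell embryo genes had 2 of 7 lower and 0 higher, with 5 lower under the replicate block. The longer lists for fibroblasts and for blood and endothelium had 0 of 2 called, with 0 also at an unadjusted p below 0.05, and 2 of 6 higher and 1 lower (Runx1 at -1.10 (SE 0.13, adjusted p = 0.0058)). Ifitm1 lost the call without WT1 (adjusted p 0.052). Ntn1 lost the call without WT2 or WT3 (adjusted p up to 0.06). Ephb2 lost the call without WT1 or WT3 (adjusted p up to 0.055). Cdkn1b had an adjusted p of 0.1026 with the correction for GC content and length.

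Rps27, a ribosomal protein gene, was listed at 37.2, 37.9 and 21.8 TPM in WT1 to WT3 and at 1612, 32.5 and 1389 TPM in KO1 to KO3, and did not pass the test (adjusted p = 0.17). Without KO2 it was called higher, with a log2 difference of 5.53 (adjusted p = 0.0032). It was chosen after its values were seen.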
